A study of Mus musculus with 6 samples.

Results

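The 43 genes described here are interferon-stimulated effector and sensor genes of the antiviral response. They were chosen by name from a list of genes that type I interferon is known to induce, without the IRF and STAT transcription factors and without the GTPases of the GBP and IRG families, and the rule uses no measured value. They are 43 of the 49585 genes listed in the count files, and 40 of them were among the 11041 genes with enough counts to be tested. Herc6 and Ifi44 had too few counts to be tested, and Ifi203 was listed at 0 counts in all 6 libraries.

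The libraries came from microglia, the resident macrophages of the brain, of male mice aged 3 months: 3 libraries labelled wild type (WT) and 3 labelled IRF8KO, for a knockout of the transcription factor IRF8. The labels name no treatment, and the cells were taken from each brain separately, without enzymatic digestion, and purified by flow sorting. The labels do not give the strain, the allele or whether the deletion is restricted to a cell type. Polyadenylated RNA was copied to full-length cDNA by template switching, so the libraries carry neither strand information nor molecular identifiers, and counting intervals and floors cover counting error only.

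Type I interferons signal through the receptor IFNAR and the kinases JAK1 and TYK2 to a complex that holds STAT2 and IRF9 and binds a promoter element called the interferon-stimulated response element (ISRE) and switches on the genes described here. Their products sense viral nucleic acid, block translation, entry or release of virus, or conjugate the ubiquitin-like protein ISG15 to other proteins. IRF8, which is made in macrophages and their relatives, belongs to the family of factors that recognise such elements, alone or together with PU.1 at a composite motif. In the healthy brain microglia are known to keep a low tonic level of these transcripts.

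Promoter sequences are shown first, because they carry the element through which interferon acts on these genes, and because called and uncalled members both hold it. RefSeq windows of assembly GRCm38.p6, from 250 bases before to 50 bases after a gene's start, were at hand for 32 of the 43 members. The ISRE core, GAAA then NN (any bases) then GAAA, was searched on both strands, with overlapping matches counted separately. It was found in 18 of these 32 members, against 3.99% of the 27025 genes with a window and 3.44% of all 32851 windows. Stretches upstream of the start are given for 8 members, 5′ to 3′ on the gene's own strand, with the matches in capitals. A match on the opposite strand reads TTTC, NN, TTTC.
Isg15: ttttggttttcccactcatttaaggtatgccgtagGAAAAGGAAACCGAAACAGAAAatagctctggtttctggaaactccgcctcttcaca
Oas1a: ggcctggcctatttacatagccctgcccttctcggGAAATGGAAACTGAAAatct
Bst2: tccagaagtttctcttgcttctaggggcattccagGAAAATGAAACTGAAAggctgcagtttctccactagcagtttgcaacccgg
Ifit3: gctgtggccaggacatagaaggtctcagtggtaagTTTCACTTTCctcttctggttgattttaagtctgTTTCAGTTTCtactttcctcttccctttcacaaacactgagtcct
Ifit3b: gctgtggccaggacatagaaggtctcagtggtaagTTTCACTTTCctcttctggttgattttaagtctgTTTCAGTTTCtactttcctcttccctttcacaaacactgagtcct
Ifit1: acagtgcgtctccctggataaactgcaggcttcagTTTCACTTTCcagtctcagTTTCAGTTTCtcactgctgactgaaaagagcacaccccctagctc
Trim30a: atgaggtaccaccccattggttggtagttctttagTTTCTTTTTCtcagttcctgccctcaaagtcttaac
Trim30d: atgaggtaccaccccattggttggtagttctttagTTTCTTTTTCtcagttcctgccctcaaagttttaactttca

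These stretches lie at chr4:156200840-156200931 (minus strand) for Isg15, chr5:120907526-120907580 (minus) for Oas1a, chr8:71537552-71537637 (minus) for Bst2 and chr19:34583338-34583451 (plus) for Ifit3. Those of Ifit3b, Ifit1, Trim30a and Trim30d lie at chr19:34607734-34607847 (plus), chr19:34640750-34640848 (plus), chr7:104465194-104465264 (minus) and chr7:104507850-104507925 (minus). Isg15 held 3 overlapping matches and Oas1a and Bst2 held 2 each. Ifit3 and Ifit3b were identical over all 114 bases shown, the Oas1a stretch was identical to that of its tandem copy Oas1g over 53 bases, and Trim30a and Trim30d shared 70 of 71 bases. The ISRE core was present in 7 of the 12 members with a window that were called higher in IRF8KO and in 10 of the 17 with a window that were not called. The Ets-IRF composite motif (GGAA, NN, GAAA, on either strand), which differs from the ISRE core in 1 letter, is the kind of site that IRF8 is known to occupy together with PU.1. It was found in 4 of the 32 members with a window (Dtx3l, Ifi44, Sp100 and Trim25), against 3.16% of genes with a window.

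Values below are CPM, the gene's count relative to the library's total as scaled by the TMM method, and are given for replicates 1, 2 and 3 in that order; the test is edgeR's quasi-likelihood test, with p-values adjusted by Benjamini-Hochberg over all 11041 genes, and a gene was called at an adjusted p under 0.05. The smallest library held 3658917 gene counts and the largest 11098363. Irf8 itself was counted in every library, at 1014 ± 335 CPM in WT against 746 ± 99.7 CPM under the IRF8KO label (SD, n = 3, edgeR adjusted p = 0.368), and gene-level counts cannot reveal a missing exon; every direction rests on the labels. Apoe took 25.5% to 33.7% of gene counts in the IRF8KO libraries and at most 0.324% in the WT libraries. Of 13 microglial markers, 6 were called lower and 1 higher; Sall1 had 0 counts in all IRF8KO libraries and 107 ± 49.2 CPM in WT, P2ry12 fell from 846 ± 383 to 48.3 ± 44.7 CPM, and the other 11 were counted in both groups. Markers of border-associated macrophages summed to 611 to 835 CPM in WT and 3912 to 5101 CPM in IRF8KO, with 9 of 9 tested genes of the list of 12 called higher. Of these, Cd163 and F13a1 had 0 counts in WT only, while Lyve1 and Cd209f had 0 counts in all 6 libraries and Folr2 was at most 0.275 CPM. Neuronal markers summed to 0.353 to 9.08 CPM in WT and 21.3 to 28.7 CPM in IRF8KO, with 2 of 4 tested genes called higher, and of 6 tested astrocyte genes 4 were called higher and 1 lower. Lymphocyte markers summed to 517 to 857 CPM in WT and 34.7 to 45.0 CPM in IRF8KO (1 of 3 tested called higher, 2 lower), those of plasmacytoid dendritic cells to 17.3 to 42.9 and 110 to 122 CPM (1 of 3 higher), and those of endothelial cells to 18.6 to 30.2 and 2.88 to 9.95 CPM (1 of 1 lower). Cox6a2 made up most of the plasmacytoid sum in IRF8KO (2.87 CPM in WT, 95.2 CPM in IRF8KO), and Atp1b1 went from 0.129 to 1.01 CPM. Tcf4 and Pacsin1 had log2 fold changes of −0.43 and −1.25 and were not called. Ly6d and Klk1 had 0 counts in all 6 libraries, and Ccr9 and Spib had 0 counts in IRF8KO. Red blood cell markers summed to 0, 0 and 57.5 CPM in WT and 53.6, 96.2 and 436 CPM in IRF8KO. Immediate early and heat-shock genes, which respond to handling, summed to 6040 and 11740 CPM in WT replicates 1 and 2, 846 CPM in WT replicate 3 and 799 to 1080 CPM in IRF8KO. The part of these differences in the results below was not tested, and in bulk libraries fewer cells of a type and less RNA per cell cannot be told apart. The p-values measure the spread between these 6 libraries.

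Of the 40 tested members, 17 were called higher in IRF8KO and 0 were called lower, where 9.64% of all tested genes were called higher and 9.46% lower. Below 0, 2 members had an unadjusted p under 0.05 in edgeR. DESeq2 called 1 member lower and limma-voom 0, beside 1361 and 1085 of all 11041 tested genes. The median log2 fold change was 1.26 over the tested members and −0.11 over all tested genes. Oas3, which had 0 WT counts, lies above the members' median also at its lower bound, so its fitted value could not move that median. A gene can pass the expression filter through the group in which it is high, as Oas1g, Oas2, Oas3, Ifit3b, Zbp1 and Samd9l did. These summaries and the counts below therefore describe the list and support nothing by themselves. The 3 IRF8KO values lay above all 3 WT values for 23 tested members, against 20.0% of all tested genes, and below them for 1 member, against 17.9%. The 17 called members were all at least 2-fold higher, and the 23 others had log2 fold changes above 0 in 13 cases and below 0 in 10. By function, the calls covered 6 of 6 OAS enzymes, 3 of 3 tested genes of ISG15 conjugation and 2 of 4 IFIT genes. They covered 2 of 6 tested nucleic acid sensors, 2 of 7 tested restriction factors and 2 of 9 other effectors. Of the genes of ADP-ribosylation and the TRIM30 family, 0 of 5 were called. Whether these roles differ was not tested.

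**Figure D1:**
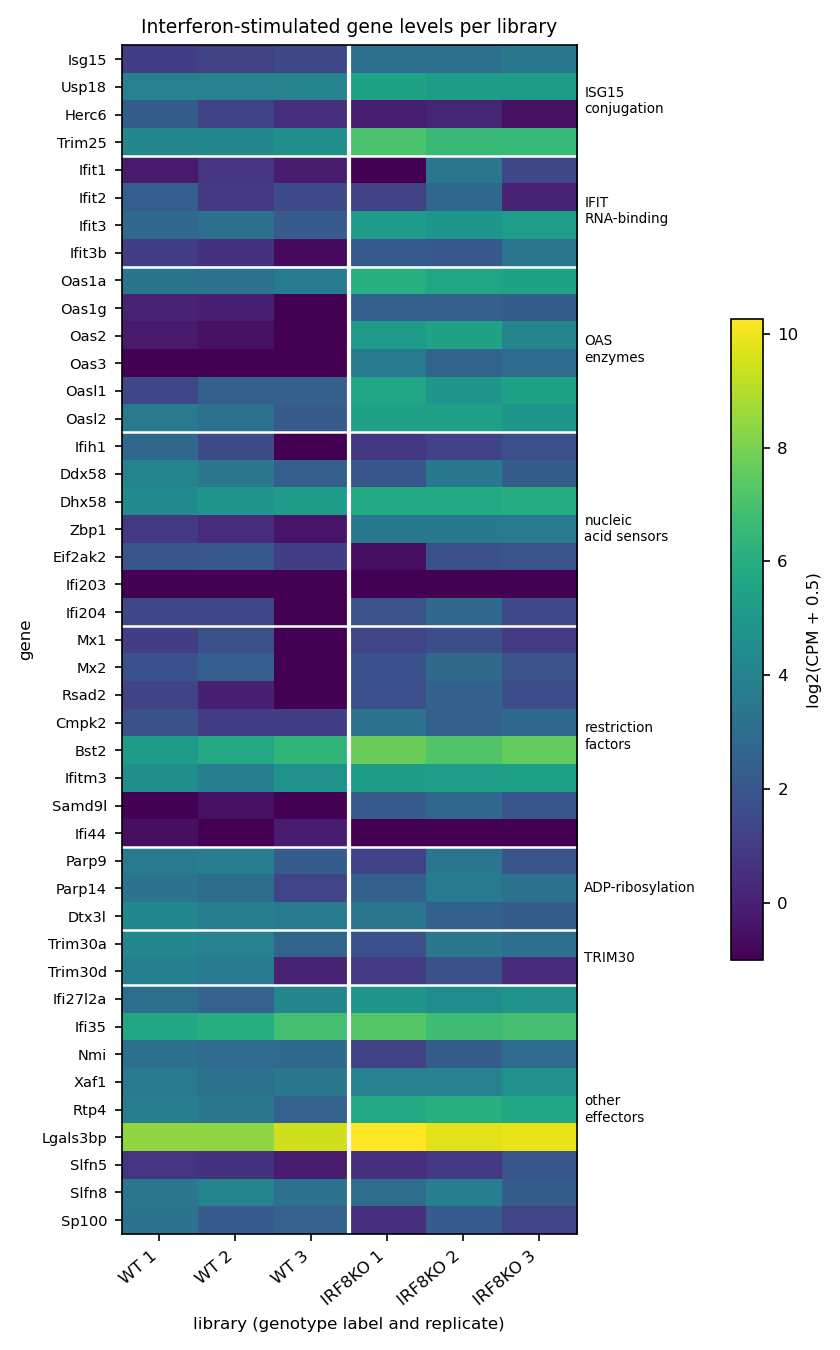
Level of each of the 43 genes (rows, grouped by role) in each of the 6 libraries (columns) as log2(CPM + 0.5), with WT left and IRF8KO right of the white line. The OAS rows are darker in WT than in all 3 IRF8KO libraries, the ADP-ribosylation and TRIM30 rows are not, and WT 3 is at 0 counts for 9 tested genes.

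Active OAS enzymes answer double-stranded RNA by making short oligoadenylates that activate RNase L. The 6 OAS and OAS-like genes were all called higher, and Oas3 and Oas2 had the largest fold changes of the 40 tested members. Oas2 (ENSMUSG00000032690, chromosome 5, 120730333 to 120749853 on GRCm38) had 0.388, 0.212 and 0 CPM in WT and 35.1, 44.6 and 16.9 CPM in IRF8KO. It was near absent from WT, with 5 counts over 3 libraries, and its log2 fold change was 7.31 (SE 0.72, edgeR adjusted p = 4.5e-05). Oas3 (ENSMUSG00000032661, chromosome 5, 120753098 to 120777661), its neighbour, had 0 counts in every WT library and 12.2, 5.64 and 7.14 CPM in IRF8KO. Against a floor of 3 counts over the WT group, Oas3 was at least 68.1-fold higher (edgeR adjusted p = 5.5e-04). Both encode long forms built of several OAS units.

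The short form Oas1a (ENSMUSG00000052776, chromosome 5, 120896256 to 120907521), which has a single OAS unit, was expressed in both groups. It had 9.70, 8.83 and 12.2 CPM in WT and 65.8, 49.9 and 46.3 CPM in IRF8KO, a 5.26-fold difference with no overlap (log2 fold change 2.40, SE 0.31, edgeR adjusted p = 3.6e-04). Its tandem copy Oas1g rose from 0.359 ± 0.314 to 4.83 ± 0.354 CPM (SD, n = 3), and reads that map to several places are not part of the gene counts. Oas1g lost its call without IRF8KO replicate 1 or 3 (edgeR adjusted p = 0.0529 and 0.0657) and with library size alone (0.0615). Of the OAS-like genes, Oasl1, whose product is known to restrain translation of Irf7, rose from 4.06 ± 1.67 to 41.4 ± 11.3 CPM. Oasl2, which carries ubiquitin-like domains, rose from 8.09 ± 3.70 to 38.4 ± 6.82 CPM. For Oasl1 the log2 fold change was 3.32 and for Oasl2 2.25 (edgeR adjusted p = 3.1e-04 and 0.0028), and Oasl2 lost its call with library size alone (edgeR adjusted p = 0.0532). Per kb of exon, the order of mean CPM per kb in WT was Oas1a (5.44), Oasl1 (1.56), Oasl2 (1.27), Oas1g (0.153), Oas2 (0.0449) and Oas3 (0). In IRF8KO it was Oas1a (28.6), Oasl1 (15.9), Oas2 (7.23), Oasl2 (6.02), Oas1g (2.06) and Oas3 (1.18). Oasl1 and Oasl2, and Oas1g and Oas2, in WT, and Oas2 and Oasl2 in IRF8KO, differed by less than the larger SD of the pair, so no change of order between the groups is read from them.

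ISG15 conjugation attaches the small ubiquitin-like protein ISG15 to newly made proteins. Trim25, a ubiquitin ligase that activates RIG-I, had 18.2, 18.6 and 24.1 CPM in WT and 134, 96.2 and 92.5 CPM in IRF8KO (ENSMUSG00000000275, chromosome 11, 88999376 to 89020293). Every IRF8KO library was well above every WT library, with a log2 fold change of 2.41 (SE 0.29, edgeR adjusted p = 2.3e-04). Isg15 (ENSMUSG00000035692, chromosome 4, 156199424 to 156200818) had 1.55, 1.84 and 2.20 CPM in WT and 8.49, 8.06 and 10.9 CPM in IRF8KO. The groups did not overlap, and the log2 fold change was 2.28 (SE 0.52, edgeR adjusted p = 0.0104). With 8 to 101 counts per library, Isg15 lost its call without WT replicate 1, WT replicate 2 or IRF8KO replicate 3 (edgeR adjusted p = 0.0529, 0.0503 and 0.0648), and in the counts of the first strand column, where its log2 fold change was 1.63 (edgeR adjusted p = 0.0507). Usp18, the protease that removes ISG15 and dampens the interferon receptor, rose from 15.0 ± 0.728 to 39.0 ± 4.98 CPM (log2 fold change 1.38, edgeR adjusted p = 0.0074). Its call was lost with scaling by library size alone (edgeR adjusted p = 0.0691). Herc6, the main ISG15 ligase of the mouse, was lower in CPM in all 3 IRF8KO libraries than in any WT library: it had 23, 28 and 7 counts in WT and 3, 7 and 2 in IRF8KO and was not tested, and 13.7% of its exonic length overlaps another gene.

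The IFIT proteins bind viral RNA and block its translation, and their genes lie next to each other on chromosome 19. Ifit3 (ENSMUSG00000074896, 34583531 to 34588731) had 6.60, 8.34 and 4.26 CPM in WT and 36.8, 29.7 and 38.8 CPM in IRF8KO, with a log2 fold change of 2.44 (SE 0.37, edgeR adjusted p = 9.4e-04). Ifit3b (ENSMUSG00000062488, 34607970 to 34613401), its near copy, had 1.55, 1.06 and 0.138 CPM in WT and 4.16, 3.94 and 10.3 CPM in IRF8KO (log2 fold change 2.75, SE 0.83, edgeR adjusted p = 0.0371). The groups of both genes were apart, but how reads were divided between the copies is uncertain. Ifit3b lost its call without WT replicate 1 or 2 or IRF8KO replicate 1 or 3, with edgeR adjusted p of 0.0525, 0.0909, 0.0644 and 0.213, and with library size alone (0.137). Ifit1 had 0.388, 1.13 and 0.413 CPM in WT and 0, 10.1 and 2.16 CPM in IRF8KO, where 1 library carried most of the signal. It was not called (log2 fold change 2.58, SE 1.23, edgeR adjusted p = 0.162), and without IRF8KO replicate 2 its log2 fold change was 0.73 (edgeR adjusted p = 0.746). With no expression filter it was called higher (edgeR adjusted p = 0.0302). Whether the Ifit1 fold change differs from those of Ifit3 and Ifit3b was not tested. Ifit2 was not called either, with 2.83 ± 1.69 CPM in WT and 1.76, 6.45 and 0.541 CPM in IRF8KO, and without IRF8KO replicate 2 its log2 fold change moved from 0.09 to −1.28 (edgeR adjusted p = 0.405). IRF8KO replicate 2 was also the library with neutrophil transcripts, whose markers summed to 322 CPM there and to at most 2.40 CPM in the others; their part in Ifit1 and Ifit2 was not tested.

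Among sensors of nucleic acid, Zbp1, which binds left-handed double-stranded nucleic acid and can start necroptosis, rose most. It had 1.36, 0.848 and 0.275 CPM in WT and 11.2, 11.1 and 12.01 CPM in IRF8KO (ENSMUSG00000027514, chromosome 2, 173206612 to 173218923). Zbp1 was 14.0-fold higher (log2 fold change 3.81, SE 0.63, edgeR adjusted p = 0.0016). The spread was small in IRF8KO but not in WT, where the SD was 0.542 CPM around a mean of 0.827 CPM. Of the 3 RIG-I-like receptors, only Dhx58, which encodes the regulatory member LGP2, was called. Its values were 20.2, 28.3 and 36.6 CPM in WT and 58.1, 56.4 and 62.4 CPM in IRF8KO (log2 fold change 1.05, SE 0.30, edgeR adjusted p = 0.0283). The Dhx58 call was lost without any 1 library except WT replicate 3, with edgeR adjusted p between 0.0513 and 0.131, and with library size alone. The signalling receptors had low values that overlapped: Ddx58, which encodes RIG-I, had 10.4 ± 5.65 CPM in WT and 6.38 ± 4.19 in IRF8KO, and Ifih1, which encodes MDA5, had 2.96 ± 3.23 and 1.99 ± 0.772. Eif2ak2, the kinase PKR that stops translation on double-stranded RNA, had 2.94 ± 1.12 and 2.05 ± 1.65 CPM. Whether these 3 fold changes differ from that of Dhx58 was not tested, and those of Ifih1 and Eif2ak2 changed sign between alternatives. Ifi204, a DNA sensor of the PYHIN family, had 2.13, 2.12 and 0 CPM in WT and 3.20, 6.62 and 2.27 CPM in IRF8KO. The groups did not overlap, but it was not called (log2 fold change 1.498, SE 0.99, edgeR adjusted p = 0.312).

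Restriction factors act on virus entry, replication or release. Bst2, the membrane tether that holds budding virus, was second in abundance over all 6 libraries, at 36.3, 55.0 and 82.2 CPM in WT and 211, 146 and 195 CPM in IRF8KO (ENSMUSG00000046718, chromosome 8, 71534255 to 71537456). All IRF8KO values exceeded all WT values, with a log2 fold change of 1.67 (SE 0.34, edgeR adjusted p = 0.0053). Samd9l, an inhibitor of translation, had 0, 0.212 and 0 CPM in WT and 4.16, 6.27 and 3.46 CPM in IRF8KO (ENSMUSG00000047735, chromosome 6, 3372257 to 3399572). Against 3 counts in WT, the scaled ratio for Samd9l was 42.5 with an exact 95% counting interval of 14.2 to 209 (edgeR adjusted p = 0.0041).

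Of the other restriction factors, 5 were tested and not called, and Ifi44 was not tested. Rsad2, which encodes viperin, had 1.94, 0.494 and 0 CPM in WT and 2.88, 5.10 and 2.71 CPM in IRF8KO. Its groups did not overlap, but at 10, 7 and 0 WT counts the error was wide (log2 fold change 2.22, SE 1.04, edgeR adjusted p = 0.158). Its neighbour Cmpk2, a nucleotide kinase, went from 2.04 ± 0.757 to 6.86 ± 1.99 CPM (log2 fold change 1.76, SE 0.59, edgeR adjusted p = 0.0543) and was called in 8 of 18 alternatives. Ifitm3, which blocks virus fusion in endosomes, had 21.6 ± 7.11 and 39.1 ± 3.25 CPM, without overlap (edgeR adjusted p = 0.0866). It was called in 3 of 18 alternatives. The dynamin-like GTPases Mx1 and Mx2 had 1.48 ± 1.45 and 2.57 ± 2.34 CPM in WT and 2.12 ± 0.631 and 4.39 ± 2.25 CPM in IRF8KO, with overlapping values. Ifi44 had 4 counts in WT and 0 in IRF8KO.

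**Figure D2:**
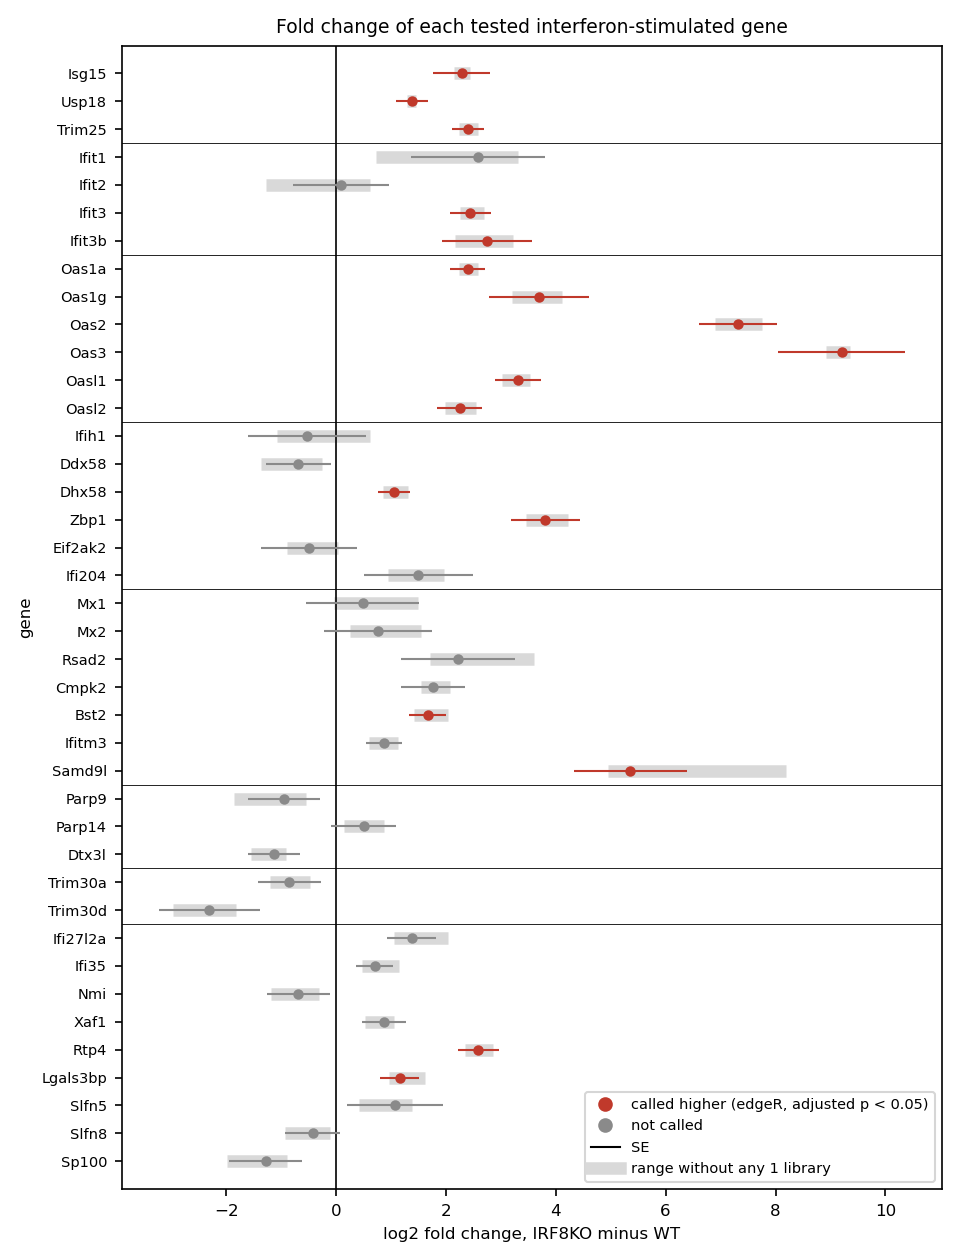
Log2 fold change (IRF8KO minus WT) of the 40 tested genes in order of role, with SE bars and grey bands for the range over the 6 fits that each left out 1 library. The 17 called genes (red) lie to the right of 0, and the fitted value of Oas3 depends on a prior count because WT had 0 counts.

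ADP-ribosylation and TRIM30 genes were not called in either direction. Parp9 and Dtx3l, whose products form a complex of an ADP-ribosyltransferase and a ubiquitin ligase, lie head to head on chromosome 16, where at most 9.40% of the exonic length of either overlaps the other. Dtx3l (ENSMUSG00000049502, 35926511 to 35939151) had 18.6, 13.6 and 11.4 CPM in WT and 10.2, 5.19 and 4.54 CPM in IRF8KO, the single tested member whose IRF8KO values all lay below WT (log2 fold change −1.13, SE 0.47, edgeR adjusted p = 0.113). Parp9 had 11.8, 13.8 and 4.401 CPM in WT and 1.92, 10.03 and 3.46 CPM in IRF8KO, with overlap (log2 fold change −0.94, edgeR adjusted p = 0.337). Parp14, a macrophage ADP-ribosyltransferase, had 6.24 ± 3.75 and 8.76 ± 3.53 CPM. Trim30d had 14.0, 11.5 and 0.550 CPM in WT and 1.44, 2.95 and 0.757 CPM in IRF8KO, so that WT replicate 3 lay below all IRF8KO libraries. Its log2 fold change was −2.31 (SE 0.92, edgeR adjusted p = 0.1001), and without WT replicate 3 it was called lower at −2.79 (edgeR adjusted p = 0.0067). Trim30a, which restrains Toll-like receptor signalling, had 18.1, 15.3 and 5.64 CPM in WT and 2.88, 10.4 and 8.12 CPM in IRF8KO and was not called (edgeR adjusted p = 0.322).

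Of the 9 remaining effectors, Rtp4 and Lgals3bp were called. Rtp4, a chaperone that moves receptors through the Golgi, had 13.6, 10.5 and 5.23 CPM in WT and 56.5, 67.2 and 51.9 CPM in IRF8KO (ENSMUSG00000033355, chromosome 16, 23520291 to 23614222). It was 6.01-fold higher without overlap (log2 fold change 2.59, SE 0.37, edgeR adjusted p = 6.7e-04), and 13.9% of its exonic length overlaps another gene. Lgals3bp, a secreted galectin-binding glycoprotein, was the most abundant member, with 336, 334 and 686 CPM in WT and 1221, 855 and 948 CPM in IRF8KO (ENSMUSG00000033880, chromosome 11, 118392751 to 118402092). Its log2 fold change of 1.16 (SE 0.36, edgeR adjusted p = 0.0426) was no longer called without any 1 library except WT replicate 3, with edgeR adjusted p between 0.0605 and 0.181, or with DESeq2 size factors (0.0554).

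The other 7 effectors did not pass. Ifi27l2a, a small hydrophobic membrane protein, had 7.76, 5.30 and 16.9 CPM in WT and 28.3, 22.02 and 27.2 CPM in IRF8KO, and missed the threshold narrowly (log2 fold change 1.38, SE 0.45, edgeR adjusted p = 0.0503). It was called in 10 of 18 alternatives. Ifi35 had 53.8, 63.6 and 119 CPM in WT and 155, 109 and 120 CPM in IRF8KO, with WT replicate 3 above IRF8KO replicate 2 (log2 fold change 0.70, edgeR adjusted p = 0.164), and 16.8% of its exonic length overlaps another gene. Nmi, whose protein binds that of Ifi35, had 7.37 ± 0.720 and 4.53 ± 2.74 CPM. The pro-apoptotic Xaf1 had 10.4 ± 1.64 and 19.0 ± 7.18 CPM. The schlafens Slfn5 and Slfn8 had 0.879 ± 0.407 and 11.6 ± 3.68 CPM in WT and 1.85 ± 1.22 and 8.64 ± 4.65 CPM in IRF8KO. Sp100, a component of nuclear bodies, had 9.12, 4.17 and 5.23 CPM in WT and 0.961, 4.39 and 2.06 CPM in IRF8KO (log2 fold change −1.28, edgeR adjusted p = 0.202).

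Summed over all 43 members, the libraries reached 719, 710 and 1110 CPM in WT and 2294, 1803 and 1901 CPM in IRF8KO. Lgals3bp made up a large part of each sum. Per kb of exon the highest mean levels in IRF8KO were those of Lgals3bp (354 CPM per kb), Bst2 (204), Ifi35 (74.1), Ifitm3 (57.6) and Ifi27l2a (55.8). In WT the order was Lgals3bp (159), Bst2 (64.0), Ifi35 (45.5), Ifitm3 (31.8) and Ifi27l2a (21.6), so the same 5 genes led in both groups and in the same order. Neighbours in this order differed by less than the larger SD of the pair from Bst2 on in WT, and for Ifitm3 and Ifi27l2a in IRF8KO. The called members had a median of their WT means of 6.399 CPM and the uncalled ones of 6.24 CPM; in IRF8KO these were 38.4 and 4.53 CPM.

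Several members varied within WT. WT replicate 3 had 0 counts for 9 tested members (Oas1g, Oas2, Oas3, Ifih1, Ifi204, Mx1, Mx2, Rsad2 and Samd9l), against 2 in WT replicate 1 and 1 in WT replicate 2. It was the lowest WT library for 22 of 40 tested members, against 47.2% of all tested genes. Of the 10 members with a log2 fold change below 0, WT replicate 3 was the lowest WT library for 9, and for 5 of the 10 all IRF8KO libraries lay below WT replicates 1 and 2; among all 5987 tested genes below 0 these shares were 60.3% and 63.1%. Without WT replicate 3, 21 members were called higher and 2 lower (Trim30d and Herc6, which passed the filter there), where 18.1% of all tested genes were called higher and 15.4% lower. Without any other 1 library the calls were 12 to 15 higher and 0 lower in edgeR, where 4.58% to 8.42% of all tested genes were called higher and 3.37% to 9.14% lower. The 12 called members that kept their call without any 1 library were Usp18, Trim25, Ifit3, Oas1a, Oas2, Oas3, Oasl1, Oasl2, Zbp1, Bst2, Samd9l and Rtp4. The 5 that did not were Isg15, Ifit3b, Oas1g, Dhx58 and Lgals3bp.

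GC content moved with these differences, and its part in them was not tested. Called members had a median GC content of 51.0% in the longest annotated transcript, uncalled ones of 45.3%, and all tested genes of 50.1%. Across the 40 members the log2 fold change and GC content had a Spearman correlation of 0.377, and across 11034 tested genes of 0.285. These points share the same 6 libraries and genes are not independent replicates. The log2 difference of WT replicate 3 from WT replicates 1 and 2 had a correlation of 0.615 with GC content across all tested genes. With an offset for GC content in each library, 20 members were called higher and 0 lower in edgeR, where 12.4% of all tested genes were called higher and 12.4% lower, the additions being Rsad2, Cmpk2 and Ifi27l2a, with 0 of the 17 original calls lost.

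**Figure D3:**
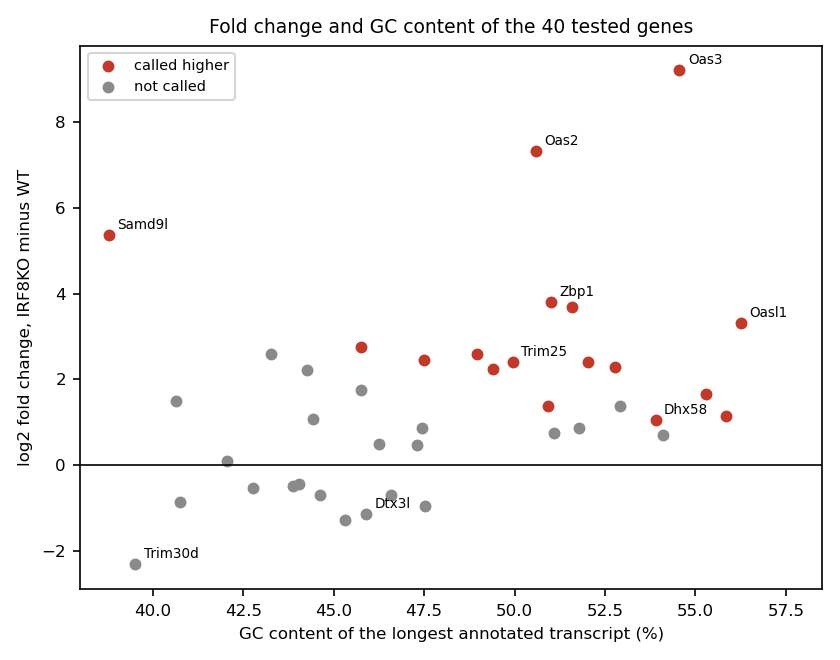
Log2 fold change (IRF8KO minus WT) against GC content of the longest annotated transcript for the 40 tested genes. Called genes (red) other than Samd9l (38.8%) and Ifit3b (45.8%) lie at 47.5% GC or above, and the genes below 0 lie between 39.5% and 47.5%.

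The genes upstream of the members were read from fixed lists. Interferon transcripts themselves were rarely counted. Of 20 genes for type I, II and III interferons, 19 had 0 counts in all 6 libraries. Ifnb1 had 0 counts in WT and 0, 6 and 3 counts in IRF8KO. A count of 0 over a group allows up to 3 counts over that group. This bound does not cover reads that map to several places, which are not part of the gene counts. Of 12 genes of the receptor and its signalling complex, 1 was called higher and 3 lower, where 9.64% of all tested genes were called higher and 9.46% lower, and their median log2 fold change was −0.29. The receptor subunits Ifnar1 (69.8 ± 30.6 CPM in WT, 61.7 ± 23.8 in IRF8KO) and Ifnar2 (165 ± 12.1 and 257 ± 41.5) were not called, nor were the complex members Stat2 (37.9 ± 9.33 and 43.6 ± 4.75) and Irf9 (117 ± 21.5 and 170 ± 29.8). The kinases Jak1 and Tyk2 fell, from 128 ± 56.5 to 39.9 ± 21.2 CPM and from 128 ± 34.6 to 61.1 ± 20.7 CPM (edgeR adjusted p = 0.0196 and 0.0413). Pias1, a SUMO ligase, fell as well and the phosphatase gene Ptpn11 rose (edgeR adjusted p = 0.0274 and 0.0094). The calls of Jak1, Tyk2, Pias1 and Ptpn11 were lost without IRF8KO replicate 3 (edgeR adjusted p between 0.0696 and 0.164). Those of Jak1, Tyk2 and Pias1 were also lost without WT replicate 2 (0.0699, 0.0992 and 0.106) or IRF8KO replicate 1 (0.101, 0.0552 and 0.125), that of Tyk2 without IRF8KO replicate 2 (0.132) and that of Pias1 without WT replicate 1 (edgeR adjusted p = 0.0680). Tyk2 also lost its call with DESeq2 size factors (edgeR adjusted p = 0.0543) or with Apoe left out of the scaling (0.0508), Ptpn11 with library size alone (0.109) and Pias1 with the replicate block and GC offset together (0.0538).

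Of 19 tested genes that lead to interferon induction, 1 was called higher and 5 lower, beside the same shares over all genes (9.64% and 9.46%), with a median log2 fold change of −0.50. Irf7, the factor that amplifies interferon production and is itself interferon-inducible, had 17.1, 21.8 and 17.9 CPM in WT and 164, 162 and 134 CPM in IRF8KO (log2 fold change 3.01, SE 0.28, edgeR adjusted p = 3.6e-05). Among the called genes, Unc93b1, which carries Toll-like receptors to endosomes, fell from 5484 ± 2538 to 1700 ± 479 CPM and Tlr7, a receptor for single-stranded RNA, from 82.5 ± 36.3 to 24.4 ± 11.9 CPM. Irf5, a factor downstream of these receptors, fell from 947 ± 250 to 383 ± 87.7 CPM. The edgeR adjusted p of Unc93b1, Irf5 and Tlr7 lay between 0.0146 and 0.0159, and without IRF8KO replicate 3 that of Unc93b1, Tlr7 and Irf5 lay between 0.101 and 0.121. The calls of Irf5 and Unc93b1 were also lost without IRF8KO replicate 2 (edgeR adjusted p = 0.0661 and 0.0632), and that of Tlr7 without WT replicate 2 or IRF8KO replicate 1 (edgeR adjusted p = 0.0520 and 0.0810). The endosomal receptor gene Tlr9 (log2 fold change 0.34) and the adaptor genes Myd88 (0.14) and Ticam1 (−0.50), named after their values were seen, were not called (edgeR adjusted p = 0.765, 0.773 and 0.366). Tlr3 and Cgas, sensors of double-stranded RNA and of cytosolic DNA that were chosen after their values were seen, fell from 16.7 ± 9.79 to 1.31 ± 0.661 CPM and from 6.76 ± 2.71 to 0.609 ± 0.295 CPM (edgeR adjusted p = 0.0029 and 0.0067). Both kept their call without any 1 library, but Cgas lost it in the counts of the first strand column, where its log2 fold change was −1.79 (edgeR adjusted p = 0.0516).

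**Figure D4:**
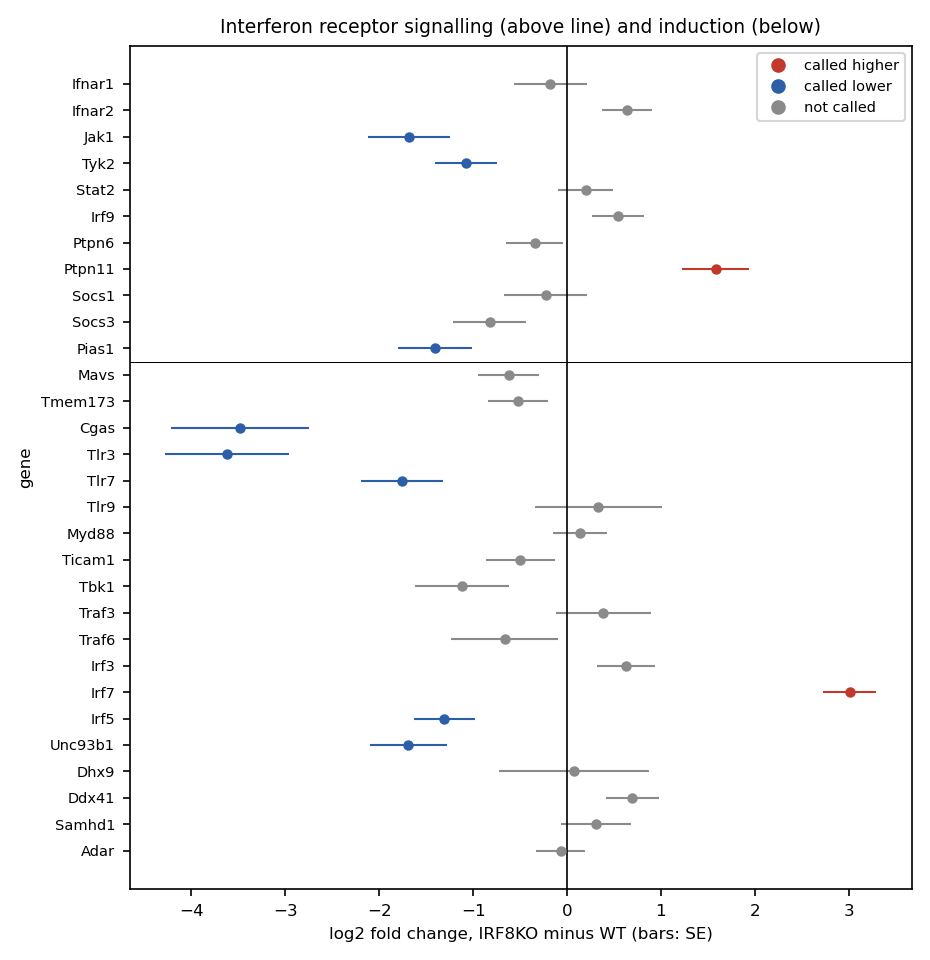
Log2 fold change (IRF8KO minus WT) with SE bars for the tested genes shown of interferon receptor signalling (above the line) and of interferon induction (below). Irf7 and Ptpn11 are called higher (red) and 8 genes are called lower (blue), among them Tlr3 and Cgas.

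A further list of 66 interferon-stimulated genes outside the 43 had 48 tested genes, of which 7 were called higher and 5 lower, near the 9.64% and 9.46% of all tested genes, with a median log2 fold change of −0.10, against −0.11 over all tested genes. Nothing particular to the list is read from these counts, and its genes are named singly. Among its called genes averaging 10 CPM or more, the smallest p-values were those of Ifitm2, Ly6a and Slfn2, which rose, and Dtx4 and Lap3, which fell. Ifitm2, a neighbour of Ifitm3 on chromosome 7, rose from 0.319 ± 0.201 to 36.5 ± 15.3 CPM (edgeR adjusted p = 2.1e-05), where 40.9% of its exonic length overlaps another gene. Ly6a, a surface protein also called Sca-1, rose from 6.34 ± 0.224 to 45.6 ± 8.78 CPM, and Slfn2, a schlafen of quiescent immune cells, from 59.7 ± 11.6 to 228 ± 30.0 CPM. Dtx4, a ubiquitin ligase, fell from 233 ± 15.0 to 49.5 ± 11.8 CPM and the aminopeptidase gene Lap3 from 74.9 ± 13.7 to 15.1 ± 4.15 CPM. The edgeR adjusted p of Ly6a, Slfn2, Dtx4 and Lap3 lay between 1.5e-04 and 7.4e-04.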

How the data were processed

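Transcripts of sorted microglia were counted in 6 libraries. The deposited counts are raw whole numbers per gene, with 4 summary lines kept out of library sizes. STAR 2.5.2b and genome mm10 are named, without roles, per the submitters' processing notes, which also name Picard 2.17.11, bcl2fastq, Subread and featureCounts; the annotation release is not given in the sources used here. Of 49585 listed genes, 49326 were matched by identifier to GENCODE M21 (GRCm38), the source of symbols, positions, GC content and exon overlap. The counts that ignore strand entered edgeR 4.0.16 under R 4.3.3: default expression filter (minimum count 10), TMM scaling, quasi-likelihood test with genotype as the single term, tested on simulated data. DESeq2 1.42.0, limma 3.58.1 (voom), other scalings and filters, stranded counts, a GC offset, the replicate number as a block, and leaving out each library were alternatives. Pairs of libraries within a group differed by more than sampling noise (chi-square per degree of freedom of at least 9.14). The members and lists were chosen with earlier results of these data known. All members are named; per-library values go to the 2 members of each role with the largest change and the 4 most abundant, and also to Oas1a, Ifit3, Dhx58 and Sp100, chosen after their values were seen. From the other interferon lists, the text names called genes that averaged 10 CPM or more, at most 5 per list by p-value, with Stat2, Irf9, Irf7, Ifnar1 and Ifnar2 always; 1 further signalling gene is not reported here. Promoters were printed for members with the motif, by p-value rank within role.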

Additional observations from a re-analysis of the deposited data

How the results depend on the processing

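Over 18 alternatives, 12 to 21 of 22 to 42 tested members were called higher, beside 524 to 2168 of 7873 to 21503 tested genes. The count of members called lower was 1 with library size alone (Dtx3l) and 0 to 2 over the 6 fits without 1 library. It was 1 with no expression filter and 1 with the DESeq2 Wald test (Trim30d in both). With no expression filter, 1236 of 21503 genes were called higher and 1460 lower. The DESeq2 Wald test called 1331 of 11041 genes higher and 1361 lower. The members' median log2 fold change of 1.26 was 0.79 with library size alone, 1.07 with no expression filter, 1.10 with at least 10 counts in every library, where 22 members were tested, and 1.09 to 1.43 without 1 library. Library size alone moved the median of all genes from −0.11 to −0.61 and gave 652 genes called higher and 1914 lower, against 1064 and 1045. Leaving out 1 library gave 524 to 2168 genes called higher and 386 to 1835 lower. Samples that share a replicate number share only the number (correlations of their deviations −0.26, 0.328 and 0.114); with the replicate number as a block, 18 members and 1141 genes were called higher and 0 members and 1212 genes lower. The sign changed under an alternative for Ifit2, Ifih1, Eif2ak2, Mx1, Parp14 and Slfn8, none of them called. Oas2, Oas3 and Samd9l had 5, 0 and 3 counts over the WT group, so the size of their change is known only roughly. These genes kept their call in every alternative that tested them. The cause of these shifts was not tested.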

Other observations

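Of the 4 genes of the Ifitm and Oas1 families on the list of other interferon-stimulated genes, Ifitm1, Ifitm2 and Oas1b rose and Oas1c was not called (log2 fold change 2.52, edgeR adjusted p = 0.0909). Ifitm1, on chromosome 7 (140967221 to 140969825), had 0, 0.141 and 0 CPM in WT and 9.45, 5.64 and 14.7 CPM in IRF8KO, and Oas1b, on chromosome 5 (120812635 to 120824163), had 0.776, 0.706 and 0.963 CPM in WT and 5.604, 9.58 and 8.76 CPM in IRF8KO. Against 2 WT counts, the scaled ratio for Ifitm1 was 129, with an exact 95% counting interval of 35.2 to 1068. The edgeR adjusted p of Ifitm1 and Oas1b were 3.9e-04 and 0.0033, and both kept their call without any 1 library. These genes were chosen after their values were seen. Uba7, the enzyme that activates ISG15 for conjugation, had 175, 216 and 263 CPM in WT and 469, 399 and 296 CPM in IRF8KO, without overlap, and was not called (edgeR adjusted p = 0.0730).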
